A study of Homo sapiens with 2 samples.

Results

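The genes described here encode the receptors of the oncostatin M and interleukin 6 family and the proteins that carry and limit their signal: OSMR, LIFR, IL6ST, IL6R, JAK1, JAK2, STAT3 and SOCS3. An ING5 peak was counted for a gene when its summit, the position with the most fragments, lay inside the gene or within 5 kb of it in GRCh38. The 8 genes were taken from 19819 protein-coding genes and held 14 of the 8608 peaks in the list. They were chosen with these peaks in view, so counts and values over them are descriptions and carry no test.

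The study mapped ING5 by ChIP-seq in untreated HepG2 cells, an established human liver cancer line, to find the genes that this protein may regulate. The ING5 protein recognises methylated histone tails through its plant homeodomain finger and belongs to histone acetyltransferase complexes. There was 1 library made with an ING5 antibody, with 12416160 fragments, and 1 input DNA library of sonicated chromatin from the same line, with 9915170 fragments, which served as the control of the peak caller. Both libraries came from cells without any treatment, so no ligand of these receptors was added and no gene was altered. Neither library was repeated, so no value has a replicate error, and the intervals given with fragment numbers are exact Poisson 95% intervals that cover counting error only.

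Cytokines of this family bind a specific receptor chain that pairs with a common signalling chain, the product of IL6ST. The paired chains activate Janus kinases bound to their cytoplasmic tails, which phosphorylate STAT3, and STAT3 enters the nucleus and activates genes, among them its own feedback inhibitor SOCS3. In the liver, interleukin 6 and oncostatin M are known for driving the acute phase response.

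Since 10 of the 14 peaks had their summit within 1 kb of a start of the gene, the sequence before 5 starts of genes with a peak is shown, and before 1 start of JAK2 for comparison, from the RefSeq promoter table in GRCh38.p14. Each line gives the 250 bases before a start, 5′ to 3′ on the gene's strand. Capitals mark matches to GGGCGG, the GC box, or to its reverse complement CCGCCC, and to TTCNNNGAA, the palindromic site that STAT proteins are known to bind. The OSMR window, chr5:38845762-38846011 on the plus strand, lay wholly within the strongest peak of the family. Of the LIFR windows, the one before the canonical start, chr5:38556647-38556896, fell in the gap between the gene's peaks and shared 6 bases with one of them. The one farther upstream, chr5:38557468-38557717, had 174 bases inside that peak. The windows before the canonical starts of IL6ST, chr5:55994964-55995213, and JAK1, chr1:64966550-64966799, lay outside peaks with a peak close by. LIFR, IL6ST and JAK1 are on the minus strand. The window of JAK2, the member without a peak, was chr9:4985022-4985271 on the plus strand.
OSMR: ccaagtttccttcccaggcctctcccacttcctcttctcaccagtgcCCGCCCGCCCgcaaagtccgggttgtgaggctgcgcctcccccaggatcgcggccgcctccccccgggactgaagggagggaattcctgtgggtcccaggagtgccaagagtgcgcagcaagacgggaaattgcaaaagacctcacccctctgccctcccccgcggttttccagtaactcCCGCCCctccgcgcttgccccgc
LIFR, canonical start: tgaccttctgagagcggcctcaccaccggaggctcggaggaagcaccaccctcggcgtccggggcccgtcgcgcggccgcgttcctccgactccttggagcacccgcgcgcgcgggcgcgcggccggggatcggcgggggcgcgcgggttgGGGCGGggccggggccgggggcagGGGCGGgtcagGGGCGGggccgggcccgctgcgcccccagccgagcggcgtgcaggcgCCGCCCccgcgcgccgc
LIFR, upstream start: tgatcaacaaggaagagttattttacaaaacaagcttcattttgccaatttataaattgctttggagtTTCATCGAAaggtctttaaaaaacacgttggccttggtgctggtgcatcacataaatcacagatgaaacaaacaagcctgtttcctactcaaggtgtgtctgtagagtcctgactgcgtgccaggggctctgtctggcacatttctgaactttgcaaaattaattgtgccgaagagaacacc
IL6ST: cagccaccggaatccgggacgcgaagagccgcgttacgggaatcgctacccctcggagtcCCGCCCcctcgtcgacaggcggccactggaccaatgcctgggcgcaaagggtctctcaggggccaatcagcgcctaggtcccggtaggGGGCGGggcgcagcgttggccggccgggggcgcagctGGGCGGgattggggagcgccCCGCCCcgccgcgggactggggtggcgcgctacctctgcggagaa
JAK1, canonical start: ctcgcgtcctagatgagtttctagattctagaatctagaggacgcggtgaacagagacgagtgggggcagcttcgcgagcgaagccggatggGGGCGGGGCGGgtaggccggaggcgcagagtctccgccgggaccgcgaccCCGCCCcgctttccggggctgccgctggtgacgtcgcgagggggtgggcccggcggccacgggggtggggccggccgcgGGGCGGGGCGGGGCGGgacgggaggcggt
JAK2: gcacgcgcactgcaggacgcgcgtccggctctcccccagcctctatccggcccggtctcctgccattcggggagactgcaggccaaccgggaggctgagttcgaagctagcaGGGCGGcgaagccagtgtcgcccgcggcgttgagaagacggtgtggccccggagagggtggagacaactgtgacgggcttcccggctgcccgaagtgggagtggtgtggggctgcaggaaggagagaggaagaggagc

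The 2 LIFR windows shown differed in make-up. The one before the canonical start was 83.6% G and C with 44 CpG dinucleotides and 4 GC boxes. The upstream one was 40.8% G and C, with 4 CpG dinucleotides and no GC box. It held 2 matches to TATAAA, which overlapped on opposite strands, and the STAT-type match TTCATCGAA. The peak covered the 174 bases of this window nearest the start. The STAT-type match began 182 bases before the start, so it lay almost wholly outside the peak, and the TATAAA matches lay farther upstream. The OSMR window held 17 CpG dinucleotides in 66.4% G and C, with 3 GC boxes, and the JAK1 canonical window 35 CpG dinucleotides with 6 GC boxes, overlapping matches counted. Over the 22197 windows of protein-coding genes in the table, the median was 62.0% G and C with 16 CpG dinucleotides. On either strand, 53.7% of those windows held a GC box, 5.92% a STAT-type match and 9.01% TATAAA. All 8 members matched the table, with 16 windows between them. Of these, 5 shared a base with a peak and 2, both at LIFR, held a STAT-type match. A match describes these letters and not a bound site.

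Of the 8 genes, 7 had a peak by the rule, and the same 7 had a summit within 1 kb of an annotated start, called a promoter peak here. All 4 receptor genes had a peak, as did JAK1, STAT3 and SOCS3, while JAK2 had none. Over all protein-coding genes, 37.1% had a peak by the same rule and 30.9% had a promoter peak. Since the members were chosen on this measure, nothing is read from that difference. The rule takes in more sequence at long genes, and the median member spanned 87478 bp against 27616 bp for all protein-coding genes. OSMR, JAK1 and SOCS3 had 3 peaks each, LIFR had 2, and IL6ST, IL6R and STAT3 had 1. Genes with 3 or more peaks made up 4.30% of all protein-coding genes. No peak lay near the edge of the 5 kb window. The farthest summit taken was 840 bp outside OSMR, and the nearest one left out was 6111 bp beyond the end of LIFR, with 12 fragments and 4.99-fold enrichment.

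OSMR, at chr5:38845858-38945596 on the plus strand, encodes the chain specific to oncostatin M and carried the strongest peak of the family. It spanned 1579 bp at chr5:38845552-38847130, with 65 fragments at the summit (50.2 to 82.8). The summit lay 277 bp downstream of the canonical start, in an exon. A local background of 3.57 fragments made it 14.4-fold enriched. Local background is the number of fragments that the peak caller expected at a summit, recovered here from the deposited pileup and fold enrichment. The peak ranked 26 of 8608 by −log10 p (57.7), 16 by pileup, 131 by width and 185 by fold enrichment. Its place was therefore higher by fragments and by p score than by the ratio to background.

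OSMR had a second promoter peak at chr5:38844933-38845341, with 28 fragments (18.6 to 40.5) over 3.59, or 6.32-fold. Its summit lay 840 bp upstream of the nearest OSMR start and 743 bp from a start of OSMR-DT, a divergent long noncoding RNA (lncRNA) gene. The third, in an intron 62262 bp downstream of the canonical start, was weak, with 13 fragments (6.92 to 22.2) over 2.38, or 4.14-fold. The counting interval of the strongest OSMR peak lay above those of both others, and the intervals of the weaker pair overlapped.

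LIFR, at chr5:38474668-38608354 on the minus strand, encodes the receptor chain for leukemia inhibitory factor, which also takes part in one of the oncostatin M receptor complexes. Its start at chromosome 5 position 38556646 lay between its 2 peaks. The stronger, at chr5:38556891-38557641, held 32 fragments (21.9 to 45.2) over 2.81 at its summit, or 8.67-fold, and ranked 446 by −log10 p. This summit lay 407 bp upstream of the canonical start but only 22 bp from a start of LIFR-AS1, an antisense lncRNA gene. The other peak was 201 bp wide at chr5:38556024-38556224, in an intron, and held 23 fragments (14.6 to 34.5) over 2.70, or 6.48-fold. Its summit lay 539 bp downstream of the canonical start. The intervals of the LIFR peaks overlapped, and both lay wholly below that of the strongest OSMR peak.

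IL6ST, the shared chain, and IL6R, which binds interleukin 6 itself, had 1 low peak each. IL6ST lies at chr5:55935095-55995022 on the minus strand and IL6R at chr1:154405193-154469450 on the plus strand. The IL6ST peak at chr5:55995247-55995486 held 11 fragments (5.49 to 19.7) over 0.853 and was 6.47-fold enriched, with its summit 291 bp upstream of the nearest IL6ST start. The IL6R peak at chr1:154405701-154405965 held 9 fragments (4.12 to 17.1), also over 0.853, and was 5.40-fold enriched. Its summit lay in an intron, 165 bp downstream of the nearest IL6R start. Counting intervals of this pair overlapped, so their order is not resolved at this depth. Both intervals lay below that of the strongest LIFR peak and of the strongest OSMR peak.

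**Figure D1:**
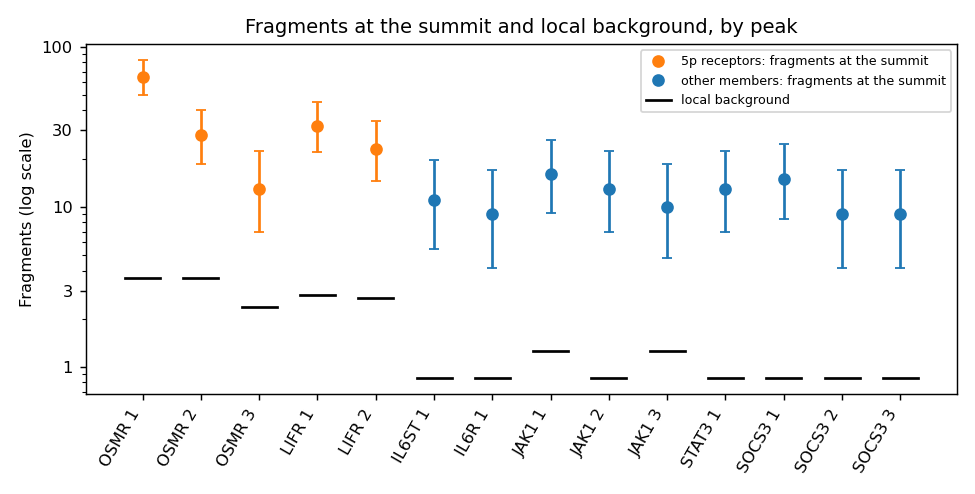
Fragments at the summit of each member peak (points, with exact Poisson 95% intervals) and the local background under it (black bars), on a log axis, numbered within a gene by −log10 p. The strongest OSMR peak held 65 fragments and the other members, apart from LIFR, 9 to 16, while the black bars stood at 2.38 to 3.59 fragments for OSMR and LIFR and at 0.853 to 1.25 for the rest.

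JAK1, at chr1:64833223-65067754 on the minus strand, encodes a kinase that binds the cytoplasmic tails of these receptors, and had a peak near its canonical start and another near its far upstream start. The peak by the canonical start, chr1:64965509-64966141, held 16 fragments (9.15 to 26.0) over 1.25 and was 7.55-fold enriched, with its summit in an intron 535 bp downstream of that start. The peak at the far upstream start, chr1:65067868-65068200, held 13 fragments (6.92 to 22.2) over 0.853 and was 7.55-fold enriched as well. Its remaining peak, of 10 fragments (4.80 to 18.4) and 4.88-fold, lay in an intron, 326 bp from a start of LINC01359, an lncRNA gene, and 35879 bp from any JAK1 start. All 3 intervals overlapped.

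JAK2, which encodes another such kinase, at chr9:4984390-5129948 on the plus strand, had no peak in its 145559 bp or within 5 kb, and the nearest lay 243404 bp away. Peaks at the genome-wide background held 7 fragments or more in this list, so occupancy below about that height would not have been listed. Not having a peak is therefore a statement about this depth. The JAK2 windows included one with 36 CpG dinucleotides in 75.6% G and C, so a CpG-rich start was present without a listed peak.

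STAT3, at chr17:42313324-42388540 on the minus strand, encodes the transcription factor of the pathway and had 1 peak at chr17:42387781-42388166 with 13 fragments (6.92 to 22.2) over 0.853, or 7.55-fold. Its summit lay in an exon, 433 bp downstream of the canonical start. SOCS3, the feedback inhibitor, is a gene of 3300 bp at chr17:78356778-78360077 on the minus strand and had 3 peaks along and just before it. The widest, of 1123 bp at chr17:78358655-78359777, held 15 fragments (8.40 to 24.7), or 8.63-fold, with its summit 1188 bp downstream of the canonical start and so outside the 1 kb promoter window. Farther into the gene a summit of 9 fragments (4.12 to 17.1) lay 2341 bp downstream, and another of 9 fragments lay 657 bp upstream of the start. Both were 5.40-fold enriched over 0.853. The SOCS3 intervals overlapped one another and that of STAT3.

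**Figure D2:**
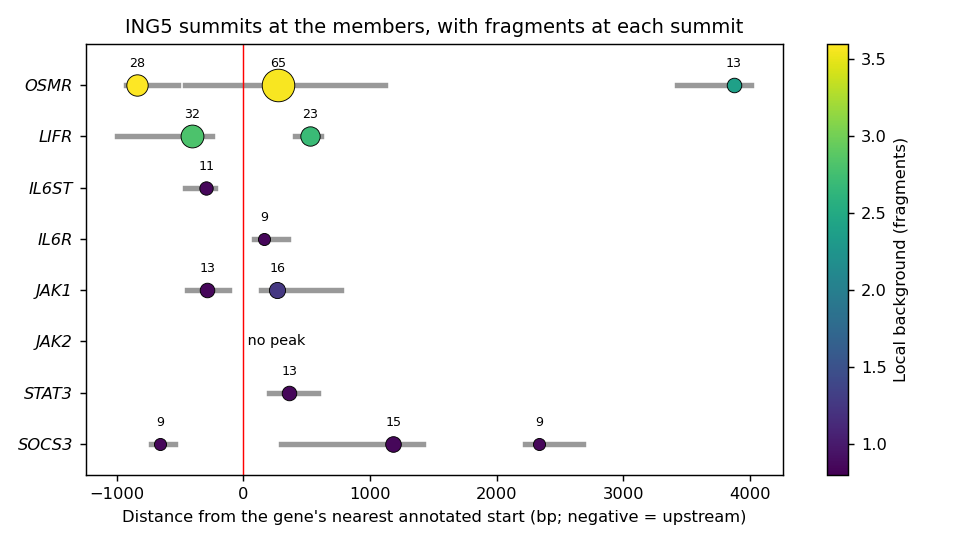
Position of each summit relative to the nearest annotated start of its gene (bp, negative is upstream), with grey bars for peak width, circle area and numbers for fragments at the summit and colour for local background. Each summit is drawn from its own nearest start, so distances between peaks of a gene are not to scale where they have different nearest starts. The JAK1 peak 35879 bp from any JAK1 start is not drawn, and JAK2 had no peak.

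The member summits lay on both sides of gene starts. Of the 10 promoter summits, 5 were downstream of the nearest start of the gene and 5 upstream. Over all 6527 promoter peaks, 74.9% of summits were downstream of the nearest protein-coding start and 25.1% upstream. Each of the 5 upstream member summits, at OSMR, LIFR, IL6ST, JAK1 and SOCS3, lay nearer to a start of an lncRNA gene than to the member's own. Those genes were OSMR-DT, LIFR-AS1, IL6ST-DT at 146 bp, an unnamed lncRNA gene (ENSG00000288804) at 232 bp and SOCS3-DT at 273 bp. Over the 1641 upstream promoter summits of the whole list, an lncRNA start was the nearer in 16.1%. None of the 5 downstream member summits was nearer to an lncRNA start, against 5.03% of the 4886 downstream summits in the list. With fragments of 183 bp, as the peak caller estimated, a summit at a shared promoter cannot be assigned to either gene.

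The receptor genes on the short arm of chromosome 5, OSMR and LIFR, stood apart from the other members by their local background. Their 5 peaks stood over 2.38, 2.70, 2.81, 3.57 and 3.59 fragments. The 9 peaks of the other members stood over 0.853 fragments in 7 cases and over 1.25 in 2, both at JAK1. The values did not overlap. For the best peak of each gene the median was 3.19 fragments at OSMR and LIFR and 0.853 at the 5 other genes with a peak, a difference of 2.34. The lowest background in the list, 0.853, is taken as the genome-wide value, and 39.5% of all peaks stood over more than that. The JAK1 value of 1.25 equals the weight of 1 input fragment once the input was scaled up to the ChIP library.

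Peaks elsewhere on the arm also stood over a raised background. Of the 360 peaks on 5p, 96.7% stood over a raised background, with a median of 1.60 fragments and quartiles of 1.25 and 2.32. On 5q, which holds IL6ST, 36.5% of 301 peaks did, with a median of 0.853, and on other chromosomes 37.1% of 7947 peaks did. OSMR and LIFR were in the upper part of 5p, since 75.8% to 97.2% of 5p peaks stood over less than their peaks did. Around OSMR, the 10 other peaks within 1 Mb of its canonical start stood over 1.60 to 3.66 fragments, all raised. Around IL6ST, the 6 others stood over 0.853 to 0.905. Local background comes from the input library near the summit or from the genome-wide rate. Why it was higher on 5p was not tested.

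**Figure D3:**
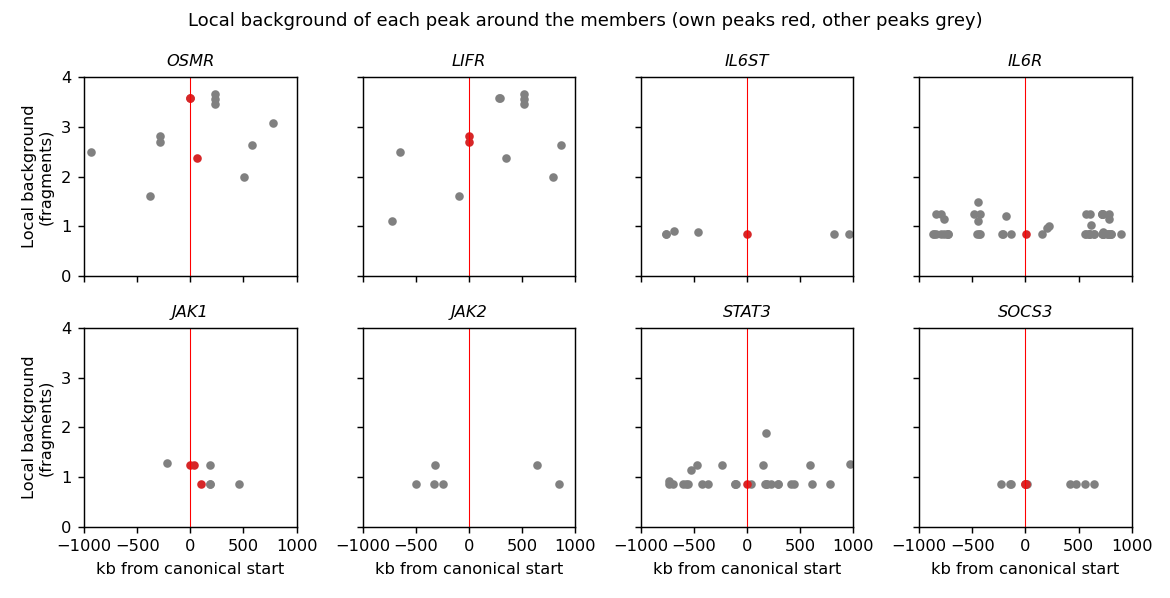
Local background (fragments) of every peak within 1000 kb of each member's canonical start, with the member's own peaks in red and other peaks in grey. All peaks around OSMR and LIFR stood above the genome-wide 0.853, while most peaks around the other 6 genes stood at or near it.

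By their strongest peaks, pileup and fold enrichment both put OSMR and LIFR first and IL6ST and IL6R last, and differed only in the order of JAK1, SOCS3 and STAT3. By fold enrichment, however, LIFR (8.67) was all but level with SOCS3 (8.63), and only OSMR (14.4) stood clear of the others. The gap between OSMR with LIFR and the other members was wider by fragments. The 5 peaks of OSMR and LIFR held 13 to 65 fragments (median 28) and the 9 others 9 to 16 (median 11). By fold enrichment their medians were 6.48 and 6.47, with ranges of 4.14 to 14.4 and of 4.88 to 8.63. Over all 8608 peaks the medians were 12 fragments and 6.47-fold. The same number of fragments also scored differently. The OSMR intron peak and the STAT3 peak both held 13 fragments, with −log10 p of 6.62 over 2.38 fragments at OSMR and 12.2 over 0.853 at STAT3. Peaks listed over a higher background also held more fragments at the least. The lowest pileup was 21 fragments among the 14 peaks over 3.4 to 3.7 fragments, and 7 among the 5204 at the genome-wide background. The IL6R peak, with 9 fragments, lay below the lowest pileup listed over backgrounds like that of the OSMR promoter. A lowest value among 14 peaks need not be the least that could be listed there. After subtracting the local background, 61.4 fragments were left at the strongest OSMR peak and 29.2 at that of LIFR, against 8.1 to 14.7 at the strongest peaks of the other members.

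**Figure D4:**
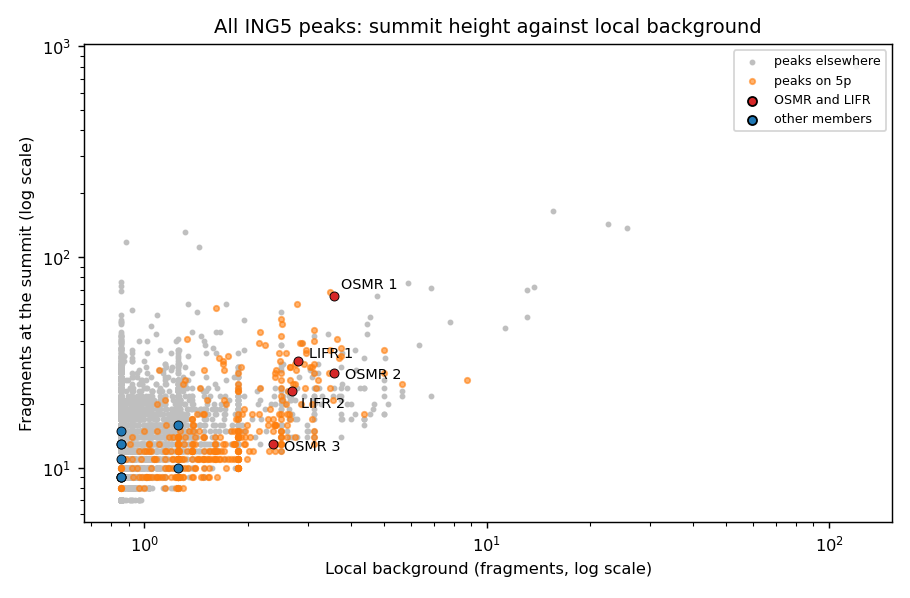
Fragments at the summit against local background for all 8608 peaks (log axes), with 5p peaks in orange, OSMR and LIFR in red and the other members in blue. The strongest OSMR peak, at 65 fragments over 3.57, was second among the 360 peaks of 5p by fragments.

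Within 5p the strongest OSMR peak ranked 2 of 360 by pileup, 4 by −log10 p and 6 by fold enrichment, and that of LIFR ranked 28, 35 and 40. The promoter peaks most like that of OSMR were sought by distance in log2 pileup, log2 width and log2 background, each divided by its SD over promoter peaks. The nearest was at STIM1 on chromosome 11, a calcium sensor gene, with 52 fragments over 4.55 and a width of 1493 bp. Next came GOLPH3, a Golgi protein gene, with 60 fragments over 2.78, and NIPBL, a cohesin loader gene, with 45 over 3.13. Both of these lie on chromosome 5, as OSMR does. The distances were 1.16, 1.21 and 1.24 SD in this 1 library, so none was a close match.

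Other genes with a start near OSMR and LIFR also had peaks. Within 1 Mb of OSMR, 3 of 6 other protein-coding genes had a promoter peak: LIFR, RICTOR and DAB2. Around the members this share ran from 29.4% at JAK2 to 50.0% at OSMR and at JAK1, beside 30.9% of all protein-coding genes. These shares were not tested, and a peak near OSMR and LIFR is not read as particular to that region. RICTOR, an mTOR complex gene 228 kb from the OSMR start, reached 41 fragments over 3.66, or 9.02-fold, and the adaptor gene DAB2 18 over 2.64, or 5.23-fold. Near IL6ST, 6 of 16 genes had one, with 9 to 17 fragments at their best peaks. IL31RA, which encodes the partner of the OSMR chain in the interleukin 31 receptor and was added after its values were seen, had none in or within 5 kb of it. Near JAK2, 5 of 17 genes had a promoter peak, led by ERMP1 with 23 fragments. Near JAK1 there were 4 of 8, among them LEPR, the leptin receptor gene, and near SOCS3 7 of 19, led by PGS1 with 16 fragments. In the gene-dense surroundings of STAT3 and IL6R there were 32 of 74 and 33 of 72. Near STAT3 the highest peak was that of CAVIN1, with 22 fragments, and near IL6R that of ZBTB7B, with 27.

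Beyond the 8 members, 63 further genes of the pathway were looked at, and 31 of them (49.2%) had a peak by the same rule, beside 37.1% of all protein-coding genes. A promoter peak was found at 24 of them (38.1%), beside 30.9%. No test was run, since the list was written with earlier results known. The best peaks of the 31 had a median of 16 fragments and 8.50-fold enrichment. Their median background was 0.853 and the highest 2.50, at CEBPB, below that of the strongest peak of either OSMR or LIFR.

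Of the ligand genes, a list too short to be set against the 37.1% of all protein-coding genes, 1 of 9 had a peak (11.1%). This was CTF1, which encodes cardiotrophin, and both its peaks lay in the promoter region of the neighbouring BCL7C. IL6, OSM, LIF and IL11 had none. Among 4 other receptor genes, also too short a list for that, IL27RA and LEPR had promoter peaks of 17 fragments and 9.71-fold each. IL11RA and CNTFR had none. The LEPR peak also lay at the start of LEPROT, which shares that promoter.

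Among the signal carriers, 3 of 5 other STAT genes had a promoter peak, beside 30.9% of all protein-coding genes. This list is too short to be set against that share. STAT5B reached 17 fragments and 9.71-fold, STAT5A 12 fragments and 7.01-fold, and STAT6 8 fragments and 4.86-fold. STAT5A and STAT5B are neighbours that share the 12-fragment peak. STAT2 and STAT4 had none. The counting interval of STAT3 (6.92 to 22.2) holds all of these values, so they were not told apart from STAT3. Of the kinases, JAK3 had 9 fragments and 4.44-fold, and TYK2, like JAK2, had no peak.

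All 5 adaptor genes had a peak, beside 37.1% of all protein-coding genes, and 4 had a promoter peak, beside 30.9%. The list is short, and nothing is read from these differences. SOS1, a Ras activator, led with 26 fragments and 14.6-fold, ahead of GRB2 with 14 and 8.09-fold, GAB1 with 13 and 7.55-fold and the phosphatase gene PTPN11 with 11 and 6.47-fold. The best SHC1 peak lay at the neighbouring PYGO2. Of 14 other inhibitor genes 7 had a peak (50.0%), beside 37.1% of all genes, and 5 a promoter peak (35.7%), beside 30.9%. This list too is short, and nothing is read from it. SOCS6 reached 17 fragments and 9.51-fold, and SOCS5 15 and 8.50-fold. The phosphatase genes PTPN2 and PTPN1 held 16 fragments each, at 9.17-fold and 7.55-fold. The SOCS4 and PTPN6 peaks lay at the promoters of the neighbouring MAPK1IP1L and C12orf57. SOCS1, SOCS2 and CISH, feedback inhibitors like SOCS3, had none.

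Genes known to be switched on by STAT3 and those of the acute phase had different counts, a difference that was not tested. Of 12 listed target genes 11 had a peak, beside 37.1% of all protein-coding genes, and 9 a promoter peak, beside 30.9%. CCND1 was the target without a peak. The target list is short and was written with earlier results known, so nothing is read from these differences. CEBPD, a transcription factor gene of the acute phase response, reached 39 fragments and 21.6-fold, the kinase gene PIM1 36 and 20.0-fold outside its promoter window, MYC 33 and 18.3-fold, and the survival gene MCL1 28 and 15.6-fold. By fold enrichment these 4 were above the strongest OSMR peak, and by fragments below it. Most of them are also known to respond to many other signals. PIM1 had a lower peak inside its promoter window as well, with 14 fragments and 8.09-fold. Of 12 acute phase genes 1 had a peak (8.33%), namely A2M, with 24 fragments and 10.5-fold and not at its promoter. This list too is short, and no difference from the 37.1% of all protein-coding genes is read from it. CRP, SAA1, HP, the fibrinogen genes, SERPINA3 and HAMP, which encode proteins that the liver secretes, had none. Hepatocyte marker genes, among them ALB and TTR, likewise had a peak in 0 of 10 cases. Neither 5 blood markers nor 5 fibroblast and endothelial markers had one. These marker sets are small, and no difference from the 37.1% of all genes was tested. Peaks record ING5 and not expression, so the labelled cell line could not be checked this way.

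**Figure D5:**
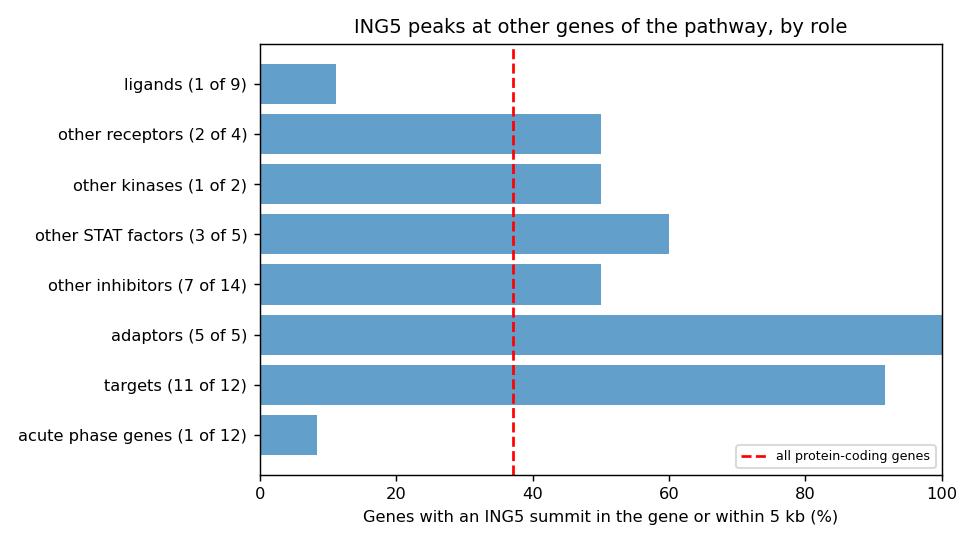
Share of the further pathway genes with an ING5 summit in the gene or within 5 kb, by role, with counts beside each role and a dashed line at the 37.1% of all protein-coding genes. Adaptors (5 of 5) and targets (11 of 12) lay above the line, and ligands (1 of 9) and acute phase genes (1 of 12) below it. The lists are short and were written with earlier results known, so no difference was tested.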

How the data were processed

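Peaks were called with MACS 2.1.1.20160309 on paired fragments against the input, per the file headers, which give 1e-05 as the p threshold. The submitters' processing notes also name fastp 0.19.6, Bowtie2 and deepTools. The pileup is deposited as a signal, namely the coverage by fragments at the summit; all values were whole numbers although the headers say that the larger library was scaled. The deposited fold enrichment is a ratio of pileup to local background, and the deposited −log10 p and −log10 q are the peak caller's scores. All are the authors' values for single peaks.

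The labels name GRCh37, but 76.0% of summits on chromosomes 1 to 22 and X lay within 1000 bp of a protein-coding start at its GRCh38 position, and 13.7% at its GRCh37 position, so positions are read as GRCh38. Gene positions are the original ones recorded in GENCODE 44. The genome sequence at hand was GRCh37 and was not used.

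Local background was computed as (pileup + 1) / fold − 1 and called raised when over 0.001 above its lowest value. The arms of chromosome 5 were parted at the longest stretch without an annotated start. The assignment of peaks was tested on simulated data. Python 3.11.15, pandas 2.3.3, NumPy 2.4.6 and SciPy 1.17.1 were used. The members and lists were chosen with earlier results of these data known; 2 genes of the wider pathway list are not reported here. All members were named, with up to 4 pathway genes of each role by −log10 p, genes that share a peak with them and examples without a peak. Neighbours were genes with a start within 1 Mb of a member's and a promoter peak.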

Additional observations from a re-analysis of the deposited data

How the results depend on the processing

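Of 23 alternatives for counts and for the difference in background, 19 kept their result and 4 moved. A count was called kept when it stayed within a set ratio of its main value. By that rule 5 members with a promoter peak in place of 7, among the more significant peaks, was kept. A count could not be reversed, so only the difference in background could have been, and it kept its sign. The other 14 alternatives changed how the pileup of each strongest peak was taken and could hardly move it. They stayed within its counting interval, as at JAK1 with 13 in place of 16 fragments, and say little about stability. Among the 1000 most significant peaks, members with a peak were 2 in place of 7 (OSMR and LIFR), members with a promoter peak 2 in place of 7, and further pathway genes 10 in place of 31. That setting keeps fewer peaks by construction, and 6.02% of all protein-coding genes had one. With a window of 200 bp only IL6R kept a promoter peak, so 1 of 8 members did, beside 13.5% of all protein-coding genes, since the other summits lay farther from a start. Positions from RefSeq, added after seeing the data, left both member counts at 7. The difference in background between OSMR with LIFR and the other members ran from 1.95 to 2.38 fragments, main value 2.34. No paired analysis was possible because each group has 1 library, and no library could be left out. With 9 to 16 fragments at most peaks, counting error does not resolve the order of the members below LIFR. The interval of the strongest LIFR peak (21.9 to 45.2) also overlapped those of JAK1 (9.15 to 26.0), SOCS3 (8.40 to 24.7) and STAT3 (6.92 to 22.2). Overlap of separate intervals does not settle whether LIFR held more fragments than these members, and that difference was not tested.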
